A study of Mus musculus with 4 samples.

Results

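The cells described here are the expanded CD4 T cell clones, other than the largest clone, in hepatic CD4 T cells of the library labelled dKO. A clone was a set of cells with the same V gene, J gene and CDR3 nucleotides in both the alpha (TRA) and the beta (TRB) chain of the T cell receptor, where each cell kept its contig with most UMIs for each chain. Clones were counted over cells with over 200 detected genes and under 5% mitochondrial UMIs, and those of more than 5 cells were taken. Of the 17645 deposited barcodes of this library 17462 passed, of which 2420 had both chains and formed 1386 clonotypes, of which 1167 held a single cell, 181 held 2 to 5 cells and 38 held more than 5. Leaving out the largest, of 281 cells, left 37 clones with 504 cells, or 20.8% of the cells with both chains. The whole series held 28018 such cells and 2835 clonotypes. Clones are numbered by size, so clone 1 is the largest clone and clones 2 to 38 are those described. They held 6 to 61 cells, with a median of 9. Just inside the threshold were 5 clones of 6 cells (348 CPM of Foxp3 and 2269 CPM of Ccl5 in their summed cells), and just outside were 11 clonotypes of 5 cells (134 and 7515 CPM).

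Both genotypes were fed for 8 weeks the CD diet, which lacks choline, draws 60 kcal% from fat, holds methionine at 0.1% and gives mice fatty, inflamed and scarred livers (metabolic dysfunction-associated steatohepatitis, MASH). The dKO mice carried floxed alleles of Nr4a1 and Nr4a2 with Cd4-Cre, which deletes in all cells of the αβ T lineage and not in CD4 T cells alone, and the other library was from WT mice. Sorted liver CD4 T cells of 2 male mice were pooled for each genotype and read as 5′ single-cell RNA and receptor libraries. There was 1 library per genotype and the mice of a pool cannot be told apart, so no test was possible. A clone here may come from either mouse. All intervals are exact 95% intervals that cover counting error alone, for UMIs (single tagged molecules), for cells or, for receptor features, for clonotypes. The intervals over clonotypes count clones that share a beta chain separately.

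The library labelled dKO held 37794986 UMIs with a median of 1685 per cell, and the WT library 23437516 with a median of 1679. The targeted genes were not lower in the library labelled dKO, with 1659 against 725 CPM (counts per 1000000 UMIs) of Nr4a1 and 306 against 183 CPM of Nr4a2. These counts sum reads over each gene and do not show which exons were read, and the exons between the loxP sites are not given in the sources used here. The expanded clones held 1460 and 535 CPM, and the single-cell clonotypes 1811 and 311 CPM. The libraries shared 242 cell barcodes, 3 of them on cells of the 37 clones, and no shared barcode carried the same clonotype in both. Cells of the expanded clones had a median of 1778 UMIs against 2140 for the single-cell clonotypes.

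When a T cell meets its antigen it divides, and its daughters inherit the receptor, so a clone of many cells marks a cell that proliferated or survived. Regulatory T cells (Tregs) carry the transcription factor Foxp3, restrain inflammation through Il10, Ctla4 and other molecules, and in tissues can release the repair factor amphiregulin (Areg). Conventional CD4 T cells lack stable Foxp3. Some become cytotoxic-like, with Eomes, granzymes and the chemokines Ccl3, Ccl4 and Ccl5, and others act as helpers through Cd40lg or Il17a. Cells that share both receptor chains most often share an ancestor, so expression can be read clone by clone.

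The receptor sequences show what defines these clones and where they resemble each other. Their 37 alpha chains were all distinct but their beta chains were 35, because 2 beta chains were each paired with 2 alpha chains. CDR3 sequences are given 5′ to 3′ from the codon of the conserved cysteine to the last codon of the loop, with capitals for bases that match neither the germline V nor the germline J segment (D segment and added bases). Clones 3 and 9 shared the first beta chain (TRBV19, TRBJ2-7) and clones 6 and 11 the second (TRBV31, TRBJ1-1). Clone 2, with 61 cells, was the largest of the 37 and is shown beside them.
clone 2, alpha (TRAV6-7-DV9, TRAJ49): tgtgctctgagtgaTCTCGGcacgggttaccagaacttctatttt
clone 2, beta (TRBV1, TRBJ2-1): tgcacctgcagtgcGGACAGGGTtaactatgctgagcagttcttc
clones 3 and 9, beta: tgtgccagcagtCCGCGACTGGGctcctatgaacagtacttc
clone 3, alpha (TRAV16N, TRAJ6): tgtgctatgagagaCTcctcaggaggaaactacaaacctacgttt
clone 9, alpha (TRAV7-4, TRAJ12): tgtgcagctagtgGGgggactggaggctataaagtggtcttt
clones 6 and 11, beta: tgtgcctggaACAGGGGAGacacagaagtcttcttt
clone 6, alpha (TRAV14D-2, TRAJ23): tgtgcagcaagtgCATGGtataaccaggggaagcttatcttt
clone 11, alpha (TRAV5D-4, TRAJ23): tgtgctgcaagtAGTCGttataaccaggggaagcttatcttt

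The beta chain of clones 3 and 9 was found in 71 cells and that of clones 6 and 11 in 74 cells, with 11 and 9 bases of neither germline segment. In clones 3 and 9 an alpha chain of each was also read together in single cells. Of the 35 cells of clone 3, 1 carried a second alpha contig, that of clone 9, and 3 of the 18 cells of clone 9 carried that of clone 3. Whether they are 1 clone with a pair of alpha chains, counted here as 2, was not tested, and they are described separately. A second alpha contig was found in 1 further cell of the expanded clones, in clone 31, and was not that of another expanded clone. The alpha chains of clones 6 and 11, with no cell of 2 alpha contigs, used the same J gene and differed at 6 bases. Over the 36 clones whose beta chain had a germline match, the bases of neither germline segment had a median of 9 (quartiles 7 and 11). In 1123 single-cell clonotypes the median was 10 (7 and 12). A shared beta chain was counted once for each clone.

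A second set of receptors recurred. The V gene TRAV13D-2 was paired with TRBJ1-6 in 5 of the 37 clones (clones 4, 5, 10, 20 and 24, with 90 cells in all). This was 13.5% of the clones (4.54 to 28.8), against 3 of 181 clonotypes of 2 to 5 cells and 5 of 1167 single-cell clonotypes (0.428%, 0.139 to 0.997). In the WT library it was found in 0 of 36 expanded clones (up to 9.74%), 0 of 137 clonotypes of 2 to 5 cells and 2 of 1276 single-cell clonotypes. All 5 had a beta CDR3 of 45 bases. Its last 27 bases, in capitals, encode the same 9 residues in 2 nucleotide versions, while the V genes and the alpha CDR3s differ.
clone 4, beta (TRBV10): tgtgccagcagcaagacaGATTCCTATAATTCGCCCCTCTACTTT
clone 5, beta (TRBV29): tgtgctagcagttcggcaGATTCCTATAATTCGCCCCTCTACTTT
clone 10, beta (TRBV1): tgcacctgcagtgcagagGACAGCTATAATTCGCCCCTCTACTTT
clone 20, beta (TRBV5): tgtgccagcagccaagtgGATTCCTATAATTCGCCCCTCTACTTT
clone 24, beta (TRBV19): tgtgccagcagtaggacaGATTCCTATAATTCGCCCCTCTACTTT

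Most of the shared end is the germline TRBJ1-6 segment (chr6:41535554-41535606 of GRCm38, plus strand), which accounts for 25 of the 27 bases, or 22 in clone 10. TRBJ1-6 itself was in 6 of 37 expanded clones and 47 of 1167 single-cell clonotypes, and with a CDR3 of 45 bases in 5 of 37 and 13 of 1167. The alpha chains of the 5 clones, with bases of neither germline segment in capitals, used the J genes TRAJ30, TRAJ13, TRAJ9, TRAJ9 and TRAJ17.
clone 4, alpha: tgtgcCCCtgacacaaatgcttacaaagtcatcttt
clone 5, alpha: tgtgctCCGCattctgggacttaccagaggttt
clone 10, alpha: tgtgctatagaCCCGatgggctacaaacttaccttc
clone 20, alpha: tgtgcGCCcatgggctacaaacttaccttc
clone 24, alpha: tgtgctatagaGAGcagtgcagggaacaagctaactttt

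TRAV13D-2 (chr14:52942764-52943289) has a near-identical copy, TRAV13-2, and the contig assignment between the 2 is uncertain, but counting both gave the same 6 of 37 clones, against 53 of 1167. This pattern was noticed in the receptor table and then counted, and is given as a description. Clones 13 and 22 each had 1 further cell with the same CDR3s under another V gene name, TRBV13-2. No clone shared both chains with a WT cell by nucleotide sequence. The beta chain of clone 30 was found in 1 WT cell. Clone 15 (12 cells) had a close neighbour among the WT clones, with 20 cells, the same V and J genes, and CDR3s that differed at 1 alpha and 2 beta bases. Capitals again mark bases of neither germline segment, of which the alpha chain of the WT clone had none.
clone 15, alpha (TRAV7N-6, TRAJ32): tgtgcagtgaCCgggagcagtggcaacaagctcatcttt
clone 15, beta (TRBV3, TRBJ1-5): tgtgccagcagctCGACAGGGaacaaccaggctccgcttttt
WT clone, alpha: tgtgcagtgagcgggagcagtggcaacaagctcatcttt
WT clone, beta: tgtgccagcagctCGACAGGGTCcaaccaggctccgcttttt

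**Figure D1:**
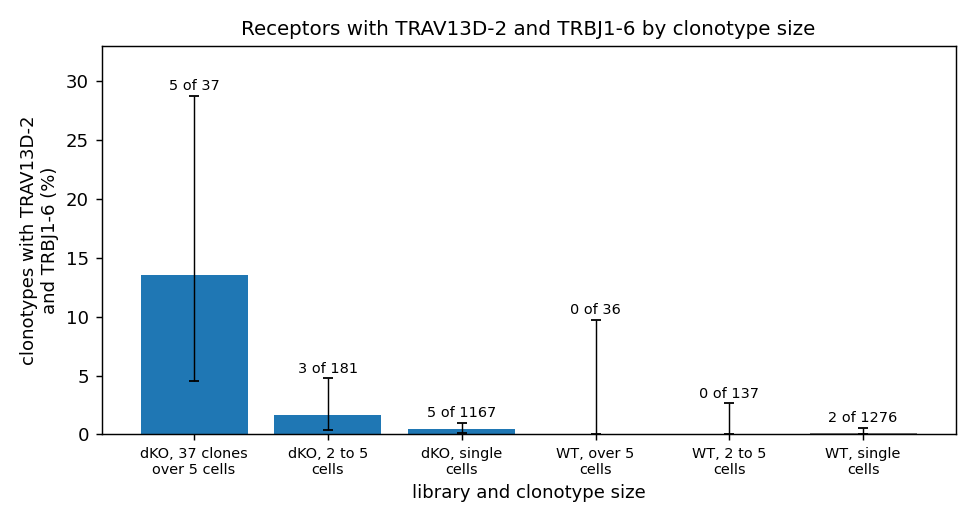
Share of clonotypes (%, vertical axis) whose receptor combined TRAV13D-2 and TRBJ1-6, by library and clonotype size. Bars are shares, lines are exact 95% binomial intervals and the counts stand above them, from 5 of 37 expanded clones to 5 of 1167 single-cell clonotypes in the library labelled dKO.

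The invariant receptor of NKT cells, TRAV11 with TRAJ18, was in 0 of 37 expanded clones (up to 9.49%) and in 55 of 1167 single-cell clonotypes (4.71%, 3.57 to 6.09). Over the clones together, the V gene of the contig accounted for 92.9% of 1869 Trbv UMIs (91.7 to 94.1) and 72.9% of 982 Trav UMIs (70.0 to 75.7) in the RNA. These shares do not extend to every clone. In 11 clones, among them clones 4, 5, 10, 20 and 24 of the TRAV13D-2 set, no Trav UMI carried the alpha V gene of the contig, and in clone 4 none of 18 Trbv UMIs carried TRBV10. In 10 of these 11 clones the alpha V gene, like TRBV10 in clone 4, was listed in the matrix but had no UMI in any cell of the library. The V gene assignments of the TRAV13D-2 set therefore rest, on the alpha side, on the contigs alone.

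All 37 clones held T cell RNA. Cd3e ranged from 604 to 2157 CPM over the clones and Cd4 from 271 to 2273 CPM. Markers of other cells that a CD4 gate could hold were also read in part of them. The 5 plasmacytoid dendritic cell (pDC) genes, led by Siglech and Ly6d, summed to 861 CPM (809 to 915) in the clones and 572 CPM (547 to 598) in the single-cell clonotypes, and ran from 0 to 5489.8 CPM (clone 25) over the clones. The 8 macrophage genes summed to 306 and 430 CPM, with C1qa at 11.6 and 27.6 CPM, and ran from 0 to 4089 CPM (clone 21). In clone 21 all 73 Lyz2 UMIs came from 1 of 9 cells. Of the 4 NKT genes, Klrb1c, Klra1 and Klra7 had no UMI in the clones, and of the 3 neutrophil genes S100a9 and Retnlg had none. The part of these cells in the results was not tested, and values without cells of the pDC-like cluster and the cluster led by Lyz2 are given beside Ccl5.

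Against single-cell clonotypes of the same library, the summed cells of the 37 clones held more RNA of Ccl3, Ccl4 and Ccl5, of cytotoxic genes and of some Treg effector genes, several of them through 6 of the clones, and less of the chemokines Xcl1 and Cxcl10 and of naive, recirculating and helper T cell genes. Foxp3 itself was at a like level, with 249 CPM (222 to 279) in the expanded clones and 220 CPM (204 to 236) in the single-cell clonotypes. The log2 ratio of Foxp3 (ENSMUSG00000039521, chrX:7573644-7595245 on GRCm38, the factor that specifies Tregs) was 0.18, with an interval from −0.02 to 0.38, and −0.18 over the clones of more than 10 cells. A gene was called different at a ratio of 2-fold or more with at least 50 CPM on 1 side. Of 3627 genes tested, 98 were called (2.7%), with 43 higher (1.19%) and 55 lower (1.52%), and the median log2 ratio over all was 0.03. With 1 library there is no test behind these calls.

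Of the 11 measured Th1 and cytotoxic genes, 6 were at least 2-fold higher, 1 was lower, and the median was 1.91. Ccl5 (ENSMUSG00000035042, chr11:83525778-83530518), a chemokine that draws leukocytes to inflamed tissue, was at 14726 CPM (14511 to 14944) against 2456 CPM (2403 to 2510), a log2 ratio of 2.58 (2.55 to 2.62). Gzmk (ENSMUSG00000042385, chr13:113171608-113225908), a granzyme, was at 343 against 34.5 CPM, a log2 ratio of 3.31 (3.01 to 3.63). Eomes, a T-box factor of cytotoxic cells, was at 72.0 against 7.80 CPM. The granule membrane protein gene Nkg7 was at 1757 against 461 CPM, Ccl3 at 340 against 66.0 CPM and Ccl4 at 3065 against 817 CPM. Xcl1, the chemokine lymphotactin, was lower, at 27.3 against 87.3 CPM. Ifng had a log2 ratio of 0.97 and Tbx21, the master factor of Th1 cells, one of 0.11. Without cells of the pDC-like cluster and the cluster led by Lyz2, the log2 ratio of Ccl5 was 2.74. These ratios leaned on 6 clones rich in Ccl5, described below by their numbers. Without those, a setting added after the values were seen, the log2 ratio was 1.28 for Ccl5 and 1.04 for Nkg7, which stayed past 2-fold. It was 0.96 for Ccl4, 0.33 for Ccl3, 0.12 for Gzmk and −0.78 for Eomes (−2.76 to 0.75, at 4.54 CPM), whose calls ended. The median of this list was then 0.40, below that of the Treg effector genes (0.77). It rests on 8 genes that reached 50 CPM on 1 side, against 11 over all clones. The 2 medians of this list therefore do not cover the same genes. The log2 ratio of Foxp3 was 0.62 without the 6 clones. These were picked for low Foxp3 and high Ccl5, and the single-cell clonotypes were not filtered in the same way. A higher Foxp3 ratio and a lower Ccl5 ratio without them therefore follow from that choice.

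Of 13 measured Treg effector genes 5 were called higher and none lower, with a median log2 ratio of 0.95. Il10, the suppressive cytokine, was at 184 CPM (160 to 209) against 62.4 CPM (54.2 to 71.5), a log2 ratio of 1.56. The inhibitory receptors Lag3 and Havcr2 had log2 ratios of 1.76 and 1.72, Gzmb one of 1.23, and Prdm1, the factor Blimp-1, one of 1.12. Without the same 6 clones the calls of Gzmb and Prdm1 ended, both with a log2 ratio of 0.77, while Il10 (1.56), Lag3 (1.52) and Havcr2 (1.30) stayed past 2-fold. Summed Gzmb was at 606 CPM (525 to 697) in those 6 clones and at 263 CPM (229 to 301) in the 27 clones with Foxp3, but clone 3 held 133 of the 199 Gzmb UMIs of the 6, which were at 320.0 CPM (247 to 407) without it. The Gzmb ratio was also under 2-fold with each clone weighted equally (log2 0.82) and with clonotypes defined by the beta chain alone (0.98). Tigit, at 802 against 434 CPM (log2 ratio 0.89), Maf (0.95) and Fgl2 (0.96) were short of 2-fold over all clones, and Tigit (1.04) and Fgl2 (1.27) passed it without the 6. Over all cells, the share of genes called without the 6 is not given here, for this list or any other. Of 10 measured Treg core genes, only Entpd1 was called, at 160 against 64.8 CPM (log2 ratio 1.30). Ctla4 was at 1804 against 1274 CPM, Ikzf2 at 760 against 649 CPM, and Il2ra, the IL-2 receptor alpha chain, at 72.0 against 132 CPM.

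Among 5 measured genes of tissue repair Tregs only Rora was called, and it was lower, at 202 against 406 CPM (log2 −1.01, and −0.69 without the 6 clones). Areg was at 417 CPM (381 to 455) against 485 CPM (462 to 509). Its log2 ratio of −0.22 changed sign, to 0.22, when clonotypes were defined by the beta chain alone, and to 0.21 without the 6 clones.

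All 4 measured Th17 genes were lower, with a median log2 ratio of −1.55. Il17a was at 97.6 against 260.1 CPM, but 74 of its UMIs came from 1 cell of clone 17, and the sign of its ratio turned when clonotypes were defined by the beta chain alone (log2 0.28). Of 7 measured naive and recirculation genes 5 were lower. Ccr7, the lymph node homing receptor, was at 13.2 against 128 CPM (log2 −3.28), S1pr1, the receptor for leaving tissue, at 19.8 against 123 CPM, and Tcf7, a factor of naive and memory cells, at 28.9 against 174 CPM (log2 −2.59). All 3 measured helper genes were lower, with Cd40lg, the ligand that licenses B and dendritic cells, at 40.5 against 110.1 CPM, and Tnfsf8 at 82.7 against 205 CPM. Without the 6 clones, of these 3 only Cd40lg stayed past 2-fold (log2 −1.21), with −0.90 for both Tnfsf8 and Tnfsf11. The Cd40lg call ended with each clone weighted equally (log2 −0.85) and with clonotypes defined by the beta chain alone (−0.84).

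Of 10 measured residency and homing genes, 2 were lower, the chemokine receptor Ccr4 at 25.6 against 65.7 CPM and the integrin Itgb1 at 179 against 422 CPM. Cxcr6, which holds T cells in the liver, was at 346 against 228 CPM (log2 ratio 0.60). None of the 12 cell cycle genes was called, with Mki67 at 155 CPM (133 to 178) against 198 CPM (183 to 214). Without the 6 clones the median of the 12 went from −0.30 to −0.61. The lowest log2 ratios were then those of Ccna2 (−1.57), Rrm2 (−1.37) and Ccnb2 (−1.26), past 2-fold. How many of all genes pass 2-fold in that setting is not given here. Over all clones none was called among 3 checkpoint, 10 Nr4a and immediate early, 4 interferon response, 9 T cell identity and 5 pDC genes, nor among 2 macrophage genes and 1 Tfh gene. The median log2 ratio of the pDC genes was 0.65.

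The ends of the ranking held further genes. Spp1, osteopontin, had the largest log2 ratio of the genes with enough UMIs, 4.60 (261 against 10.8 CPM), but 27 of the 37 clones had none and clones 6, 11 and 27 held 293 of its 316 UMIs. Setbp1 was at 94.3 against 29.7 CPM. Among the 12 lowest, Cxcl10 was at 14.9 against 112 CPM and Emb, a cell adhesion gene, at 141 against 610 CPM. Tmem176a, Nebl, Tbc1d4, Ramp3, Tnfrsf25 and Bach2 had log2 ratios from −2.10 to −1.70. The call of Tmem176a ended with clonotypes defined by the beta chain alone (−0.50), and that of Tnfrsf25 with each clone weighted equally (−0.98) or with 1 cell drawn per clone (−0.96).

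**Figure D2:**
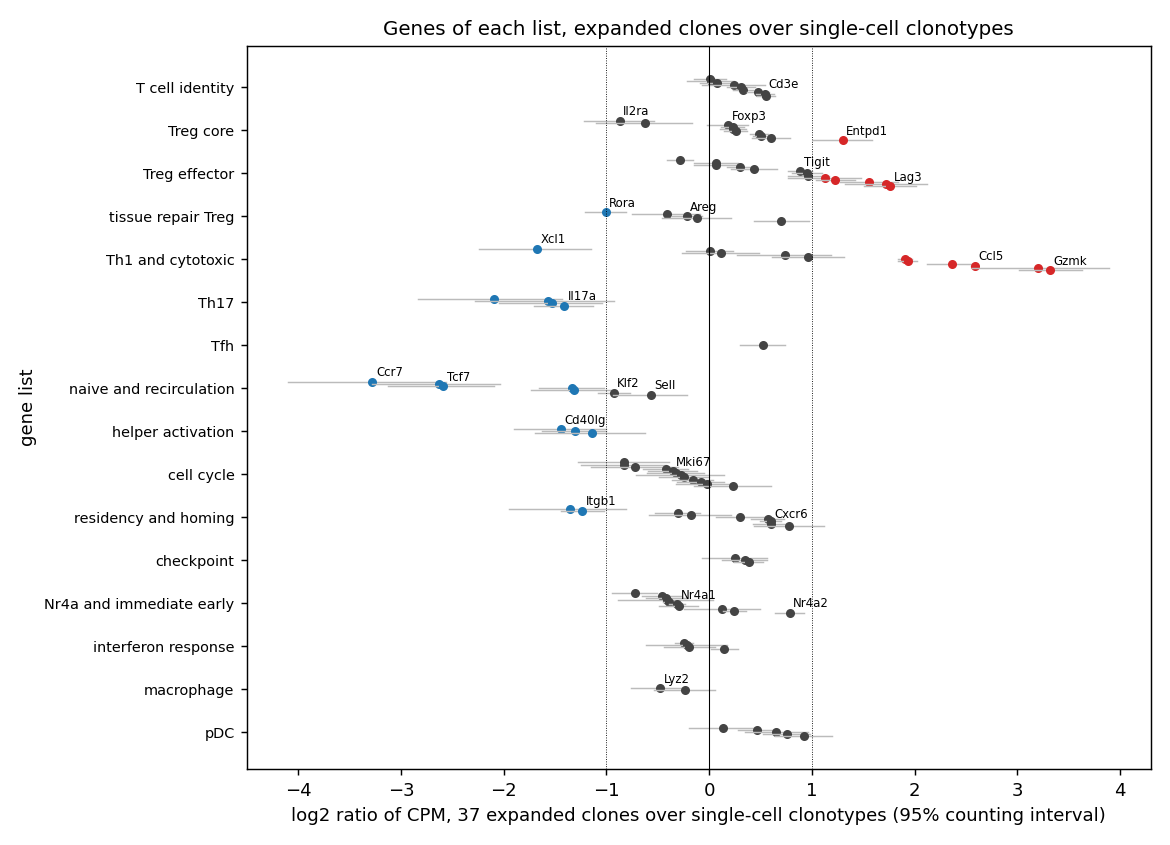
Log2 ratio of CPM in the 37 expanded clones over the single-cell clonotypes (horizontal axis), 1 point per gene shown, by gene list (vertical axis), with exact 95% counting intervals as grey lines. Red and blue points are at least 2-fold higher or lower (dotted lines), and the largest ratios are those of Gzmk (3.31) and Eomes in the cytotoxic list, and Ccr7 (−3.28) at the lower end.

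Shares of cells with a UMI were compared after thinning every cell to 1000 UMIs, which left 442 cells of the clones and 1091 of the single-cell clonotypes. Ccl5 was read in 84.4% (80.7 to 87.6) against 45.9% (42.9 to 48.9) of them, Nkg7 in 61.8% against 25.1%, Il10 in 15.6% (12.4 to 19.3) against 5.68% (4.38 to 7.23), and Foxp3 in 20.1% (16.5 to 24.2) against 18.3% (16.1 to 20.8). As background, 3777 cells of the pDC-like cluster without a receptor contig (median 2986 UMIs) gave 10.6% for Ccl5, 2.89% for Nkg7, 0.715% for Il10 and 1.80% for Foxp3. Without thinning, the shares in the clones were 91.5% for Ccl5, 24.8% for Il10 and 34.3% for Foxp3. Tcf7 was read in 3.39% against 15.7% and Cd40lg in 3.62% against 11.7%.

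The sums over clones hid a split between them. Foxp3 was read in 29 of the 37 clones, from 0 to 801 CPM with a median of 305 CPM, and it was at 0 in the other 8. Ccl5 was read in all 37, from 315 to 61532 CPM with a median of 5521 CPM. The clones with most Ccl5 had little or no Foxp3. Set by these values after they were seen, and with no test, 27 clones (359 cells) were at or above 50 CPM of Foxp3, 6 clones (113 cells; clones 3, 6, 9, 11, 17 and 27) were below it with at least 20000 CPM of Ccl5, and 4 clones (32 cells; clones 15, 30, 32 and 34) were below both. A single UMI was worth 8.20 to 106 CPM over the clones, so a clone of few cells at 0 may still hold the transcript. Clone 15 fell under the line with 1 Foxp3 UMI (48.5 CPM). In clones 30, 32 and 34 a single UMI, worth 67.2 to 70.1 CPM, would have passed it. Clone 20 was above it on 2 UMIs and clone 3 below it with 4, so the split depends on depth. The 3-UMI floor was 24.6 to 319 CPM.

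**Figure D3:**
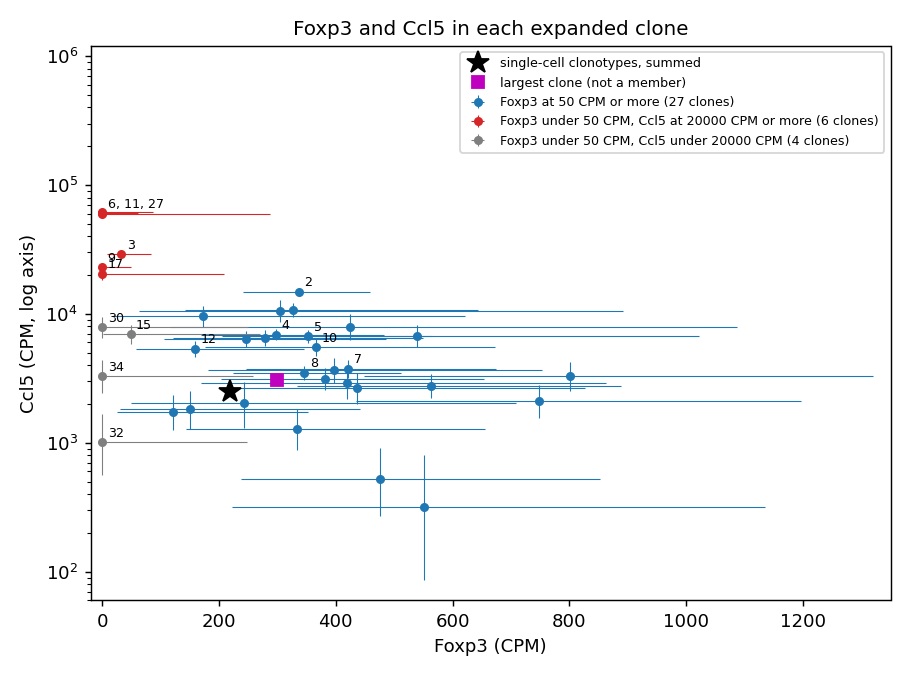
Foxp3 (CPM, horizontal axis) against Ccl5 (CPM, vertical log axis) in each of the 37 expanded clones, coloured by the groups described in the text, with exact 95% counting intervals. The 6 clones at 20000 CPM of Ccl5 or more lie at 0 to 32.8 CPM of Foxp3, and the star and square mark the single-cell clonotypes and the largest clone.

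Clone 2 (61 cells, 118894 UMIs) had the most Ccl5 of the Foxp3-bearing clones, at 14896 CPM (14210 to 15606), with 336 CPM of Foxp3 (240 to 458). Its Ikzf2, the factor Helios, was at 1312 CPM, Areg at 707 CPM and Lag3 at 320 CPM. A single cell held 31 of its 84 Areg UMIs, and without it Areg was at 463 CPM. Klrg1, a receptor of effector Tregs, was at 50.5 CPM (18.5 to 109.8). In the Treg-like cluster were 85.2% of its cells (73.8 to 93.02).

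Clone 3 (35 cells) had 4 Foxp3 UMIs, or 32.8 CPM (8.94 to 84.0), and 29136 CPM of Ccl5. Gzmk was read in all 35 cells, at 1083 CPM, and Gzmb stood at 1091 CPM (913 to 1293) in 21 of them. Clone 9 (18 cells), which shares its beta chain, had no Foxp3 UMI (up to 49.9 CPM), 22956 CPM of Ccl5 and the highest Gzmk of all, 1665 CPM (1384 to 1986), again in every cell. Its Eomes level, 298 CPM, was also the highest. Ccl4 was at 5627 CPM in clone 3 and 9069 CPM in clone 9.

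Clones 6 (26 cells) and 11 (16 cells), which share the other beta chain, had the most Ccl5 beside clone 27, at 60132 CPM (58182 to 62131) and 61532 CPM. Neither had a Foxp3 UMI, which allows up to 61.7 and 87.7 CPM. Nkg7 was at 5188 and 5352 CPM and Lag3 at 602 and 714 CPM. Both also held Spp1, at 1992 and 2830 CPM, in 10 of 26 and 8 of 16 cells. In clone 11 a single cell held 63 of 119 Spp1 UMIs, and in clone 27 a single cell held 36 of 55.

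Clones 4 (30 cells), 5 (27 cells) and 10 (16 cells) carried the TRAV13D-2 and TRBJ1-6 receptors. Foxp3 was at 297, 353 and 366 CPM and Ccl5 at 6913, 6704 and 5521 CPM, values that lie within each other's intervals for Foxp3. Ikzf2 was at 1691, 1079 and 1499 CPM. Areg was at 632 and 658 CPM in clones 4 and 10 and at 20.8 CPM (0.525 to 116) in clone 5. In clone 4, 28 of 34 Areg UMIs came from 1 cell, and in clone 10 this was 16 of 18, so that without these cells the levels were 123 and 82.7 CPM.

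Clone 7 (21 cells) had the highest Il10 of the 37, at 893 CPM (625 to 1236), in 13 of its cells. Its Ctla4 (4537 CPM) and Klrg1 (1041 CPM) were also the highest, both by little. Clone 38 was close in Ctla4, and clones 36 (1023 CPM) and 14 (1017 CPM) in Klrg1. Without the top cell of each, Klrg1 was at 935 CPM in clone 7, below clones 36 (985 CPM) and 14 (971 CPM). Areg in clone 7 was at 2058 CPM (1639 to 2551). Clone 8 (20 cells) had 346 CPM of Foxp3 and of Il10, 678 CPM of Gzmb and 125 CPM of Areg, with 55.0% of its cells in the Treg-like cluster. A single cell held 37 of its 49 Gzmb UMIs and a single cell 7 of its 9 Areg UMIs, and without that cell the level was 185 CPM of Gzmb and 30.7 CPM of Areg, respectively.

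**Figure D4:**
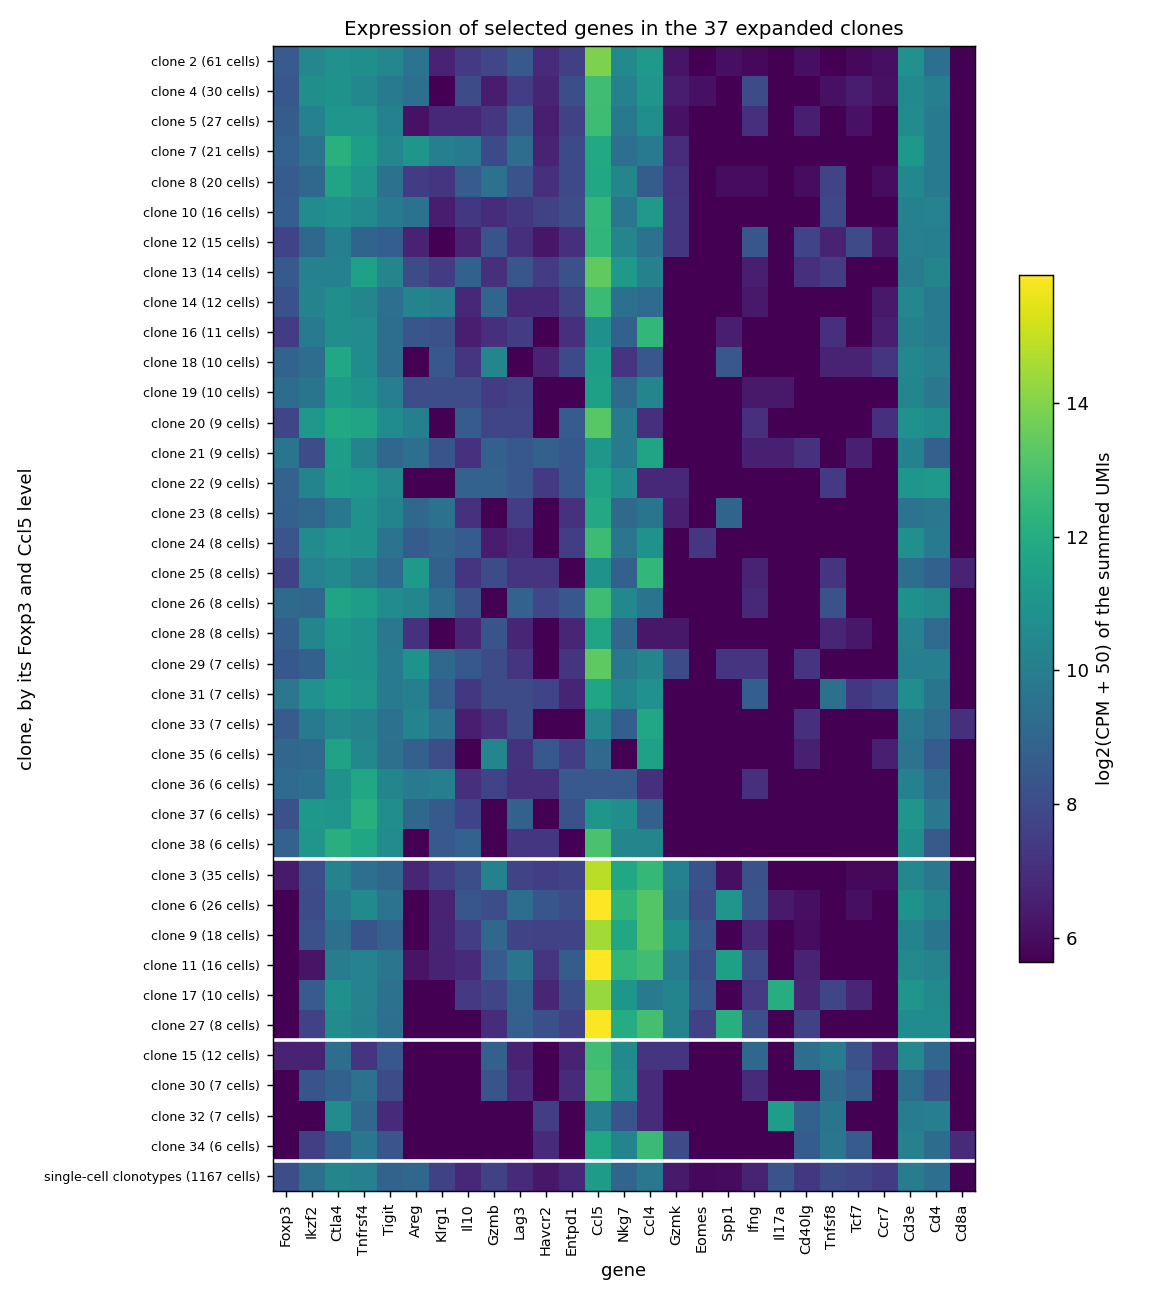
Expression of selected genes (horizontal axis) in each of the 37 expanded clones and in the single-cell clonotypes (vertical axis), as log2(CPM + 50) of summed UMIs. White lines divide the 27 clones with Foxp3, the 6 with Ccl5 above 20000 CPM and the 4 others, and Gzmk is highest in the middle group.

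Over the 27 clones with Foxp3, which the grouping set at 121 to 801 CPM, Ccl5 ran from 315 to 14896 CPM. Other Treg genes also varied. Il10 ran from 0 to 893 CPM (median 110), Areg from 0 to 2216 CPM (median 485, highest in clone 25), Klrg1 from 0 to 1041 CPM (median 264) and Gzmb from 0 to 1213 CPM (median 172, highest in clone 35). Ikzf2 was read in all of them, from 220 to 2183 CPM, and Ctla4 from 838 to 4537 CPM. In clone 25, 28 of 44 Areg UMIs came from 1 cell (840.1 CPM without it), and in clone 35, 21 of 28 Gzmb UMIs (473 CPM without it). Penk, the proenkephalin gene of tissue Tregs, was at 1757 CPM in clone 13, but its 43 UMIs all came from 1 of 14 cells.

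Within these 27 clones, the 5 with TRAV13D-2 and TRBJ1-6 had 1485 CPM of Ikzf2 (1308 to 1680) and the other 22 had 917 CPM (845 to 994), a log2 ratio of 0.70. Over the 5 it ran from 1079 to 2148 CPM. Of the other 22, clones 37 (2183 CPM), 38 (2017 CPM) and 31 (1761 CPM) lay within or above that range. Clones 2, 13, 14, 22, 25 and 28 of the other 22 lay within it as well. Of 3888 genes tested in this comparison, 7.72% were called, with 4.09% higher and 3.63% lower. Gzmb was lower, at 70.7 CPM (36.6 to 124) against 314 CPM (272 to 360), and ran from 34.9 to 172 CPM over the 5 clones and from 0 to 1213 CPM over the other 22. Klrg1 was at 100.2 against 314 CPM, though clone 24 reached 453 CPM. For all 3 genes the clones of the 2 sets overlap. Of the 203 Gzmb UMIs of the other 22 clones, 37 came from 1 cell of clone 8 and 21 from 1 cell of clone 35.

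Genes that did not enter the grouping also set the 6 clones with most Ccl5 apart, as a description. Gzmk was read in all 6, from 854 to 1665 CPM, while the highest of the other 31 clones was at 210.2 CPM (clone 34). Eomes was read in several cells of clones 3, 6, 9, 11 and 17, from 218 to 298 CPM. In clone 27 it rested on 2 UMIs of 1 of 8 cells (156 CPM), fewer than the 3 UMIs from 1 cell of clone 24, outside this group, and clone 4 had 1 UMI. Nkg7 ran from 2030 to 5352 CPM, and its lowest value, in clone 17, was below the 2206 CPM of clone 13 among the clones with Foxp3. Spp1 was at 1992 CPM or more in clones 6, 11 and 27 and at 16.4 CPM or less in clones 3, 9 and 17. Their Il10 ran from 0 to 285 CPM, with a summed level of 183 CPM (140 to 235), close to the 198 CPM (169 to 231) of the clones with Foxp3. Cells with their beta chains but no alpha contig, described below, held less Il10, at 50.1 CPM (20.1 to 103). Areg was at 24.4 CPM (10.5 to 48.0) in the 6 clones, against 608 CPM (555 to 663) in the clones with Foxp3. Ifng was at 195 against 53.9 CPM. Cd4 was at 969 CPM (865 to 1082), and Cd8b1 at 9.14 CPM. In clone 17, 74 Il17a UMIs came from 1 of its 10 cells.

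The 4 remaining clones held helper and other genes at levels near or above the highest of the clones with Foxp3. Tnfsf8 ran from 542 to 921 CPM, Emb from 630.0 to 1276 CPM and Rora from 533 to 841 CPM. Among the 27 clones with Foxp3, clone 31 reached 640.4 CPM of Tnfsf8, and clone 36 reached 551 CPM of Rora and 629.7 CPM of Emb. All 4 had no Il10 UMI (up to 57.1 CPM over their summed cells). Cd40lg was at 582 CPM in clone 15, 403 CPM in clone 32, 350.3 CPM in clone 34 and 0 in clone 30. Tcf7 was read in clones 15, 30 and 34, from 242 to 350.3 CPM, and not in clone 32. Clone 32 (7 cells) held 2687 CPM of Il17a and 940.3 CPM of Il17f, each in 5 of its 7 cells, and Ccr6 at 470.1 CPM, genes of Th17 cells. A single cell held 7 of its 14 Il17f UMIs (518 CPM without it). Clone 15 held 485 CPM of Ifng and 436 CPM of Fasl. Clone 30 held 338 CPM of Cd8b1, from 5 UMIs. The same clone also held pDC genes, with 20 Ly6d, 8 Cox6a2, 7 Siglech and 7 Klk1 UMIs, and 1 of its 7 cells was in the pDC-like cluster. The part of these cells in its values was not tested.

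Cells with the beta chain of a member clone but no alpha contig did not enter the clones, and allowed the same genes to be read in other cells of the same library. There were 268 such cells. In the 63 with a beta chain of the Ccl5-rich clones, Ccl5 was at 38199 CPM (37181 to 39238), against 38255 CPM in the clones themselves. Gzmk was at 908 CPM (757 to 1081) against 1164 CPM and Eomes at 265 against 253 CPM. Foxp3 was at 71.5 CPM (34.3 to 132) against 12.2 CPM, and Spp1 at 258 against 899 CPM. Il10 was at 50.1 CPM (20.1 to 103) against 183 CPM, and Il17a at 0 (up to 26.4 CPM) against 232 CPM. In the 181 with a beta chain of the clones with Foxp3, Foxp3 was at 359 CPM (301 to 424) against 363 CPM, Ikzf2 at 973 against 1035 CPM and Areg at 314 against 608 CPM, and no Eomes UMI was read. Their Il10 was at 256 CPM (207 to 312) against 198 CPM. In the 24 with a beta chain of the other 4 clones, Cd40lg was at 214 against 356 CPM and Tcf7 at 175 against 232 CPM. Areg was at 505 CPM in these cells and at 0 in the clones. Such a beta chain may also pair with an alpha chain of another clone.

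Clustering of all 28018 cells by the study's settings gave 8 clusters. Of the cells of the expanded clones 54.8% (50.3 to 59.2) fell into cluster 1, called Treg-like from Foxp3, Il10, Tigit, Tnfrsf9 and Tnfrsf4 among its leading genes, against 27.2% (24.7 to 29.9) of the single-cell clonotypes. Cluster 0, led by Ifng, Cd40lg, Il17a and Fasl, held 25.6% (21.8 to 29.6) against 47.1% (44.2 to 50.04). The cycling-like cluster 4, led by Ube2c, Pclaf and Birc5, held 11.5% and 11.6%. No cell of the clones fell into the naive-like cluster 3 (Ccr7, Lef1, Dapl1), which held 5.83% of the single-cell clonotypes. The pDC-like cluster 2 (Siglech, Klk1, Ly6d) held 6.35% against 5.06%, and cluster 5, led by Lyz2, S100a9 and Il1b, held 1.59% against 2.74%. All these shares cover cells with both chains alone. In the library labelled dKO a receptor contig was found in 36.9% of the cells of cluster 0 and 33.6% of cluster 1. The share ran from 5.30% in cluster 6 to 68.2% in cluster 4. The part of this uneven recovery in the cluster shares was not tested.

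Cluster 1 was the leading cluster of 25 clones and cluster 0 of 11, and cluster 4 held 4 of the 8 cells of clone 28. The 11 clones of cluster 0 were the 6 with most Ccl5, the 4 others under 50 CPM of Foxp3, and clone 12, which had 158 CPM of Foxp3. In 20 of the 37 clones at least 80% of the cells were in 1 cluster, and the lowest share was 37.5% (8.52 to 75.5) in clone 24. Expression set the clusters, so the match of clusters with Foxp3 and Ccl5 is a description.

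**Figure D5:**
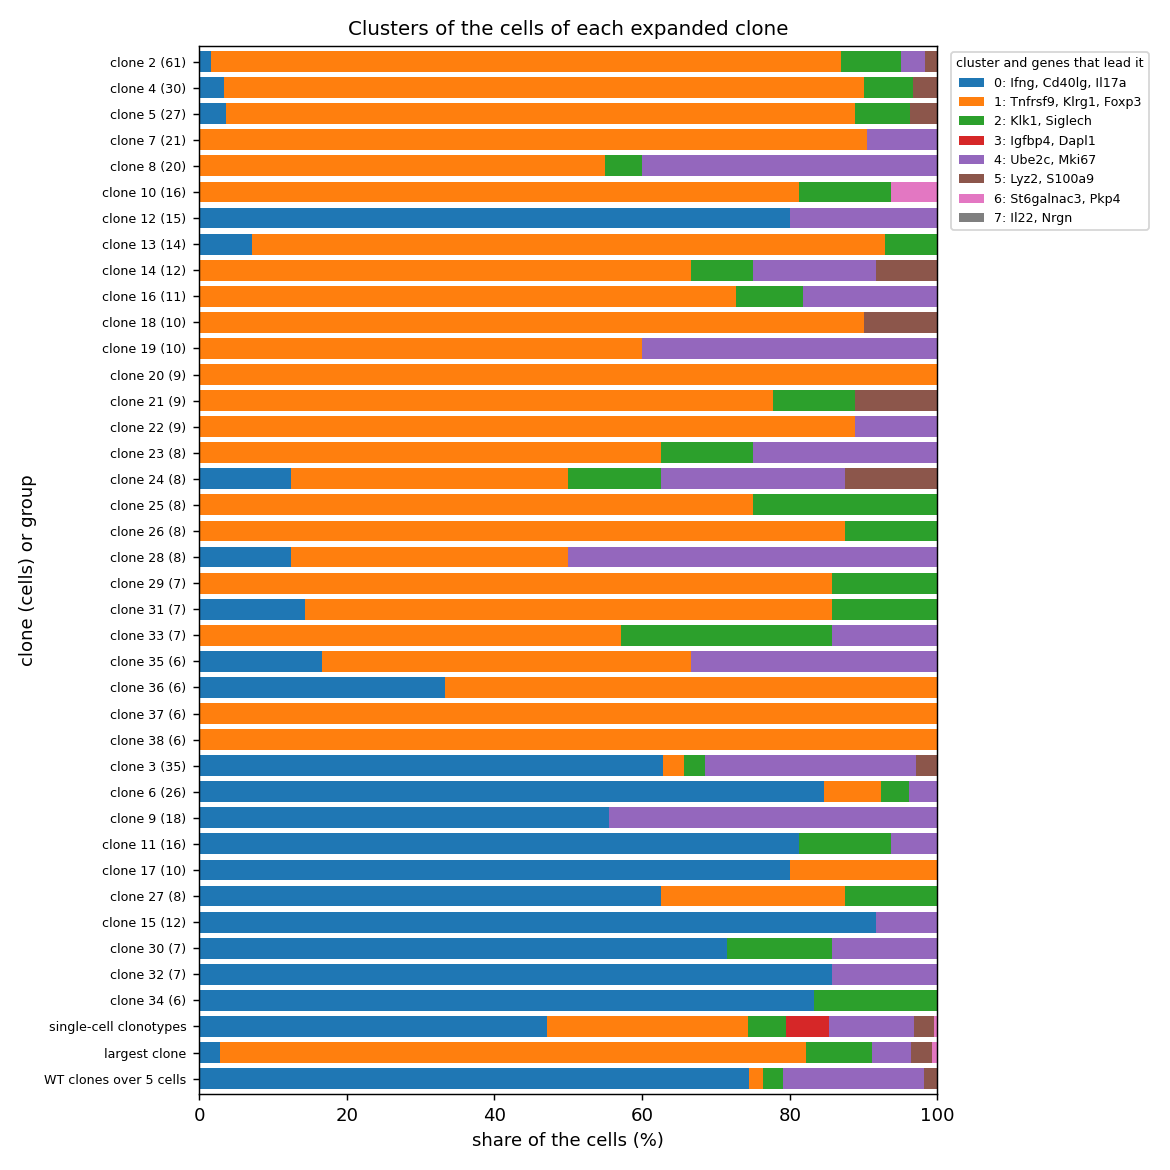
Share of the cells (%, horizontal axis) of each of the 37 expanded clones, and of the comparison groups, in the clusters of all cells. Cluster 1 (Treg-like) leads in 25 clones and cluster 0 in 11, and no cell of the clones is in the naive-like cluster 3.

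The comparison was repeated within clusters, which still held different clones in unequal numbers. Of the cells of the expanded clones, those of the 6 Ccl5-rich clones were 7 of 276 in cluster 1, 80 of 129 in cluster 0 and 20 of 58 in cluster 4. In cluster 1 (276 cells of 30 clones against 318 single-cell clonotypes), 2.42% of 3722 genes were called, 1.1% higher and 1.32% lower. Ccl5 was higher (9777 against 3961 CPM, log2 ratio 1.30), as was Ifng (66.1 against 11.6 CPM), and Il1rl1, the IL-33 receptor of tissue Tregs, was lower (39.7 against 93.03 CPM). Foxp3 was at 441 against 520.4 CPM, a log2 ratio of −0.24 (−0.50 to 0.01), Il10 at 251 against 174 CPM and Areg at 791 against 1074 CPM, all short of 2-fold. In cluster 0 (129 cells of 20 clones against 550), 9.39% of 3651 were called, 4.46% higher and 4.93% lower. Ccl5 was at 40679 against 3190 CPM, Gzmk at 753 against 50.9 CPM, Lag3 at 363 against 33.1 CPM and Areg at 56.7 against 409 CPM. Without the 6 clones, a setting added after the values were seen, Ccl5 in cluster 0 was at 5630.1 CPM (log2 ratio 0.82) and Gzmk at 82.6 CPM (0.70), both short of 2-fold, while Lag3 (1.64) and Areg (−2.31) stayed past it. In that setting 13.8% of 3952 genes were called in cluster 0, over 49 cells of 14 clones. In cluster 4 (58 cells of 20 clones against 135), 6% of 3715 were called, 3.07% higher and 2.93% lower, with Il10 at 179 against 25.1 CPM and Gzmk at 554 against 37.6 CPM. Without the 6 clones Il10 there was at 177 CPM and Gzmk at 26.1 CPM, from 5 UMIs, and 8.84% of 3780 genes were called, over 38 cells. Of the calls in cluster 1, 9 of 41 higher and 14 of 49 lower genes were also called over all cells.

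The largest clone, described only for comparison, had 300.0 CPM of Foxp3, 3092 CPM of Ccl5, 11.6 CPM of Gzmk and 1332 CPM of Klrg1, a Klrg1 level above that of each of the 37 clones. It shared neither chain with any of them.

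The expanded clones of the WT library (36 clones, 532 cells) were set beside these 37, with 1 library for each genotype. Foxp3 reached 50 CPM in 27 of 37 clones of the library labelled dKO and in 3 of 36 WT clones, where the highest value was 131 CPM. Il10 was read in 31 of 37 and in 1 of 36. These differences were not particular to expanded clones. Foxp3 was at 220 against 66.7 CPM and Il10 at 62.4 against 13.3 CPM in the single-cell clonotypes of the libraries labelled dKO and WT, Foxp3 was at 168 against 43.6 CPM over all their cells, and cluster 1 held 35.1% of all cells of the former and 538 of 10556 of the latter. Ccl5 reached 20000 CPM in 6 of 37 and in none of 36, where it ran from 0 to 7473 CPM, and Gzmk reached 500 CPM in 6 of 37 and in none of 36. The 20000 CPM line was set on the 37 clones after their values were seen. In the single-cell clonotypes of the libraries labelled dKO and WT, Ccl5 was at 2456 against 943 CPM and Gzmk at 34.5 against 24.5 CPM. Cd40lg was read in 17 of 37 clones (median 0) and in all 36 WT clones (median 558 CPM). Cluster 1 held 1.88% (0.905 to 3.43) of the WT cells and cluster 0 held 74.4% (70.5 to 78.1). Genotype, mice and library cannot be told apart here.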

How the data were processed

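Hepatic CD4 T cells sorted by flow cytometry from WT and dKO mice were read as 5′ single-cell RNA and receptor libraries, 1 per genotype. The deposited matrices hold UMI counts that the authors made with Cell Ranger 7.0.1 on mm10, and the deposited contig tables give V and J genes, CDR3 nucleotides and UMI counts. Counts were summed over cells and given as CPM of all UMIs, with exact Poisson intervals, and as ratios with conditional binomial intervals (Python 3.11.15, scipy 1.17.1). Shares have Clopper-Pearson intervals. A gene was called at 2-fold or more with 50 CPM on 1 side. Named genes were the members of 22 lists (170 genes) and 12 genes at each end with at least 10 UMIs on the lower side, leaving out receptor, immunoglobulin, mitochondrial and ribosomal genes, and the 10 largest clones were described singly. Clusters came from Seurat 5.3.0 (2000 variable genes, 9 components, resolution 0.1, libraries integrated), and no doublet caller was run. The script was tested on simulated counts. Receptor segments and positions came from GENCODE M21 on GRCm38. The members and lists were chosen with earlier results of these data known, and the clone groups and the receptor set after their values were seen. Intervals cover counting error only. Alternatives were other filters, depths, scalings, clone definitions and sets of cells. A listed gene is not reported here.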

Additional observations from a re-analysis of the deposited data

How the results depend on the processing

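No paired analysis was possible because each genotype had 1 library. The counts of genes at least 2-fold higher and lower, 43 and 55 in the report, became 59 and 89 with clones of more than 10 cells, 183 and 231 with a minimum of 10 CPM, and 1768 and 3314 with no minimum, where more genes of few UMIs are counted. The share of cells with Foxp3 moved from 20.1% to 10.7% at 500 UMIs per cell, 27.8% at 2000 and 34.3% unthinned, that of Il10 from 15.6% to 12.3%, 19.4% and 24.8%, and that of Ccl5 from 84.4% to 91.5% unthinned. With the libraries merged without integration, 72.4% of the member cells fell into their main cluster, against 54.8%. The ratio of Eomes turned to −0.78 on the log2 scale without the 6 clones rich in Ccl5, at 4.54 CPM. Its interval, from −2.76 to 0.75, spans 0. The ratio of Il17a turned to 0.28 with clonotypes defined by the beta chain alone (75 clones, 1087 cells). For both, the cause was not tested beyond the cells left out or added. With 1 cell drawn per clone, 100 times, the log2 ratio was 2.14 for Ccl5 and 2.69 for Gzmk. Depth limits the small clones, where a single UMI was worth up to 106 CPM.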
